A study of Mus musculus with 4 samples.

Results

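This comparison set 2 mouse induced pluripotent stem cell (iPSC) lines against 2 fibroblast cultures sampled at day 6 of reprogramming, gene by gene, across families of metabolism, signalling, extracellular matrix and transcription factors. A gene entered when 1 of its probe sets carried its symbol alone, and of several such probe sets the one with the highest mean was taken. It counted as measured when it reached the measuring floor, the array's median over single-symbol probe sets, on 1 or more of the 4 arrays. Of 22180 genes with a probe set of their own, 12735 were measured, and 10123 of these (79.5%) had 1 sign in all 4 pairs of an iPSC with a day 6 array, 5956 (46.8%) with the lines above and 4167 (32.7%) with the lines below.

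Both day 6 cultures were reprogrammable mouse embryonic fibroblasts, which carry reprogramming factors that doxycycline switches on. Per the labels 1 had a knockdown of Firefly, a luciferase gene that mice lack, and the other a knockdown of Sumo2. The Sumo2 transcript read 10.65 and 10.56 in the Firefly and the Sumo2 culture and 11.40 and 11.07 in the lines, so the second is called the culture labelled Sumo2 knockdown. The iPSC arrays are titled 38 h and 10 day, and their lines are labelled as derived after Sumo2 knockdown; the labels do not say what these times count, and no iPSC line from the Firefly control was analysed here. The end state of reprogramming and descent from a culture labelled Sumo2 knockdown therefore cannot be told apart in this contrast. Per the labels all cells shared the strain background Black6-129X1/SvJ, a pool of male and female, ascorbic acid with doxycycline, and serum-containing embryonic stem cell medium. The Y-linked genes Kdm5d, Uty and Eif2s3y nevertheless lay above the floor at day 6 and under it in both lines. Sex chromosome content may therefore differ between lines and cultures too. For the X-linked genes named below, it cannot be told apart from the end state. Each condition was 1 array of bulk RNA, so the arrays of a pair are 2 different conditions and not replicates. In bulk RNA, fewer cells of a type and less RNA per cell cannot be told apart.

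Fibroblasts and pluripotent cells differ in how they feed on glucose, what they secrete and which signals they read. Fibroblasts build collagen-rich matrix, respond to growth factors such as PDGF, EGF and TGF-beta, and keep the Hox code of the body region they came from. Pluripotent cells grow as epithelial colonies that divide quickly, rely heavily on glycolysis and one-carbon metabolism, and use LIF, Nodal and FGF signalling around a network of Nanog, Sox2 and related factors.

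Values are log2 expression. The day 6 cultures come first, Firefly and then the one labelled Sumo2 knockdown, and the lines follow after "against", 38 h and then 10 day. A gene was called higher or lower in iPSC when limma's Benjamini-Hochberg adjusted p was under 0.05, the difference of means was at least 2-fold and all 4 pairs had that sign. By this rule 1820 genes (14.3%) were called higher and 1161 (9.12%) lower. Family counts are read against these 2 shares. The median difference over all measured genes was 0.15, and family medians are read against it. After cyclic loess scaling that median was 0.02 and the calls were 1473 higher and 1384 lower, so higher calls made up 61.1% of all calls as deposited and 51.6% after loess. The spread of differences over genes was 1.0 (SD) for iPSC minus day 6, against 0.33 between the day 6 cultures and 0.40 between the lines. Many calls have a dim side: 500 of the higher calls lay under the floor on both day 6 arrays and 332 of the lower calls under it on both iPSC arrays. For these a fold is counted from the floor and given as "at least". Among genes past the p threshold, the higher genes nearest the 2-fold threshold differed by 1.0001 inside it and 0.9997 outside, and the lower ones by -1.0001 and -0.9993.

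**Figure D1:**
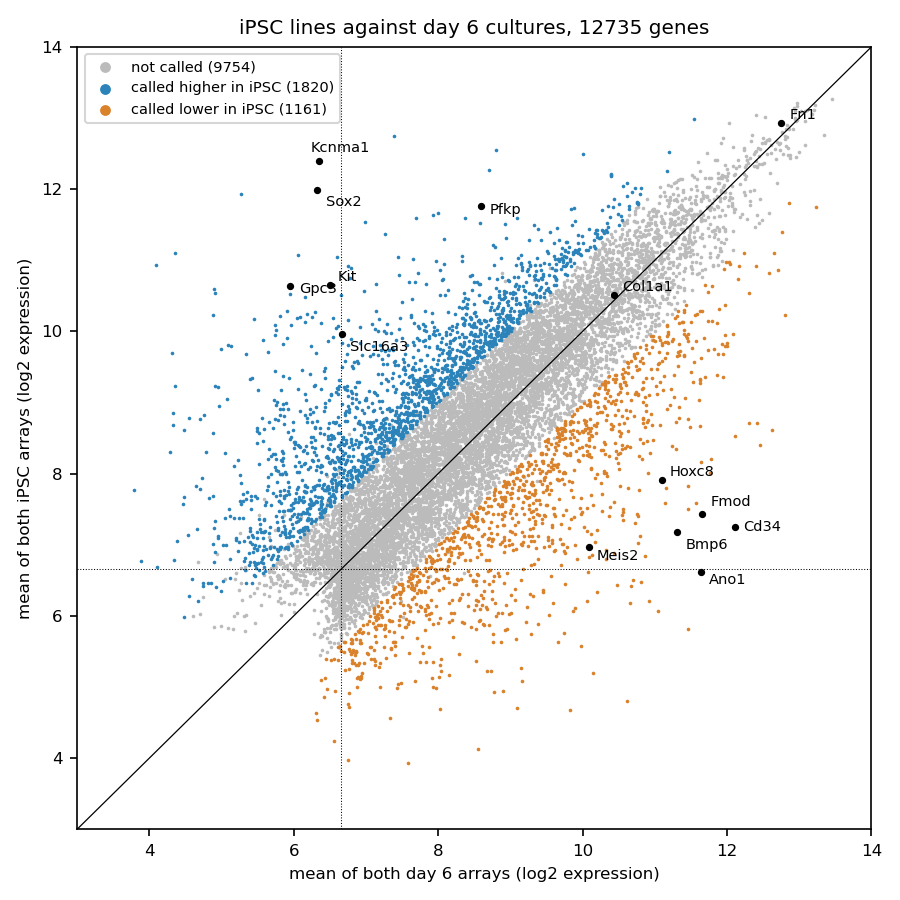
Each point is 1 of 12735 measured genes, with the mean log2 expression of both day 6 arrays on the horizontal axis and of both iPSC arrays on the vertical axis; dotted lines mark the mean measuring floor of each pair and the solid line equality. The 1820 genes called higher lie above the line and the 1161 called lower below it, while Col1a1 and Fn1, both matrix genes, lie close to the line.

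The labels were checked against cell type markers. Of 8 pluripotency markers 7 were measured and 6 called higher: Nanog read 7.54 and 9.87 at day 6 and 12.05 and 12.50 in the lines, and Sox2 6.10 and 6.55 against 12.03 and 11.96. Pou5f1 was not called (7.56 and 7.58 against 8.56 and 8.39) and Dppa5a lay under the floor on every array. RNA from the introduced reprogramming factors was not told apart from RNA of the cells' own genes. All 8 fibroblast markers were measured and 3, Thy1, Prrx1 and Twist1, were called lower. The summed level of the 8 was 13.55 and 13.17 at day 6 and 12.26 and 11.98 in the lines on the log2 scale, and 6 of the 8 lay above the floor on all 4 arrays. Of 4 blood markers Ptprc, Csf1r and Adgre1 lay under the floor on all arrays and Cd68 was called higher, though not after loess or without the Firefly array (log2 difference 1.02, limma adjusted p = 0.07), without the culture labelled Sumo2 knockdown (1.06, adjusted p = 0.0516) or without the 10 day line (0.76, adjusted p = 0.0289). Of 5 epithelial markers Cdh1, Epcam and Cldn6 were called higher, with a summed level of 10.18 and 11.71 against 12.74 and 12.59, and all 5 lay above the floor on every array. Epcam (7.10 and 9.78 against 10.96 and 10.62) was not called after loess, with values set to the floor, under 3 other settings (no filter, a filter at the median over all probe sets, no intensity trend) or without the 38 h line (log2 difference 2.18, limma adjusted p = 0.0573). Cldn6 (6.77 and 8.24 against 10.12 and 9.12) was not called without the Firefly array (log2 difference 1.37, limma adjusted p = 0.0933). Among 5 neural markers Tubb3 (5.97 and 6.61 against 8.91 and 9.59) and Sox1 were higher and Nes lower (9.06 and 9.42 against 7.75 and 8.21), with a summed level of 9.81 and 10.14 against 10.16 and 10.43. Muscle Des (7.47 and 7.70 against 9.69 and 8.86) was higher, though not without the Firefly array (log2 difference 1.57, limma adjusted p = 0.0523), while Myod1 and Myog were not called. Trophoblast Eomes, a T-box factor, was higher (6.45 and 6.76 against 8.49 and 8.29), while Cdx2 and Elf5 lay under the floor on every array. Endothelial Pecam1, which pluripotent cells also express, was higher and Tek lower. Among primitive endoderm markers Gata6 and Pdgfra were called higher and Dab2 lower, with a summed level of 11.39 and 11.08 against 10.78 and 9.65. Gata6 lost its call with values set to the floor, without the Firefly array (log2 difference 1.37, limma adjusted p = 0.15), without the culture labelled Sumo2 knockdown (1.27, adjusted p = 0.152) or without the 38 h line (0.67, adjusted p = 0.051). Pdgfra, under the floor on both day 6 arrays (5.22 and 6.10 against 7.56 and 6.76), lost it with values set to the floor or without the Firefly array (log2 difference 1.06, limma adjusted p = 0.122), and Dab2 without the Firefly array (log2 difference -1.81, limma adjusted p = 0.128) or without the culture labelled Sumo2 knockdown (-2.20, adjusted p = 0.0717).

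Counted from the floor, the genes furthest above the day 6 cultures included Kcnma1, a potassium channel, at 6.36 and 6.34 against 12.48 and 12.32, which is at least 53.6-fold. Dusp9, an X-linked phosphatase that restrains ERK and marks pluripotent cells, read 7.11 and 7.43 against 11.01 and 11.74, a 17.2-fold difference. The stem cell factor receptor Kit read 6.31 and 6.69 against 10.38 and 10.91. The closest pair of an iPSC and a day 6 array in these 3 genes was 3.58 log2 units apart. Trim6, a ubiquitin ligase, read 6.76 and 6.83 against 10.83 and 10.95, and Nup62cl, a nucleoporin-like gene on the X chromosome, 6.42 and 6.78 against 10.43 and 11.66. The other 10 of the 15 highest were Sox2, Zfp981, Tdgf1, Pla2g1b, Zscan4e, Dppa2, Gpc3, Lrrc2, Zscan4b and Tfcp2l1.

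At the other end stood Ano1, a calcium-activated chloride channel, at 11.58 and 11.70 against 6.79 and 6.45, and the surface sialomucin Cd34 at 12.14 and 12.07 against 7.39 and 7.12. Cd109, a co-receptor that dampens TGF-beta signalling, read 12.43 and 12.47 against 8.67 and 8.14. Fbxo32, a ubiquitin ligase subunit known from muscle wasting, read 11.11 and 10.29 against 6.48 and 6.53. Over these 4 genes no pair of an iPSC and a day 6 array came closer than 3.76 log2 units. The other 11 of the 15 lowest were Sostdc1, Aldh3a1, Sbspon, Fmod, Mmp28, Bmp6, Prelp, Pllp, Edn1, Lama4 and Fbln5, of which Sostdc1, Bmp6 and Edn1 are secreted signals and Fmod, Prelp, Lama4 and Fbln5 matrix proteins.

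The 4 groups of families differed in the direction of their calls. Of 322 measured metabolic genes, 53 (16.5%) were called higher and 29 (9.01%) lower, close to the shares over all genes. Signalling genes had 57 (13.4%) higher and 111 (26.1%) lower of 425. Matrix and adhesion genes had 23 (11.8%) higher and 61 (31.3%) lower of 195, and transcription factors 63 (15.3%) higher and 83 (20.1%) lower of 412. Median differences were 0.21 for metabolism, -0.26 for signalling, -0.42 for matrix and -0.19 for transcription factors. The lower calls in the last 3 groups ran alongside a lower summed level of fibroblast markers, of which 3 of 8 were called lower. Some of these markers, such as Prrx1, Twist1 and Col1a1, are themselves members of the groups, so the comparison is partly of genes with themselves. The part that fibroblast marker levels play in these calls was not tested.

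**Figure D2:**
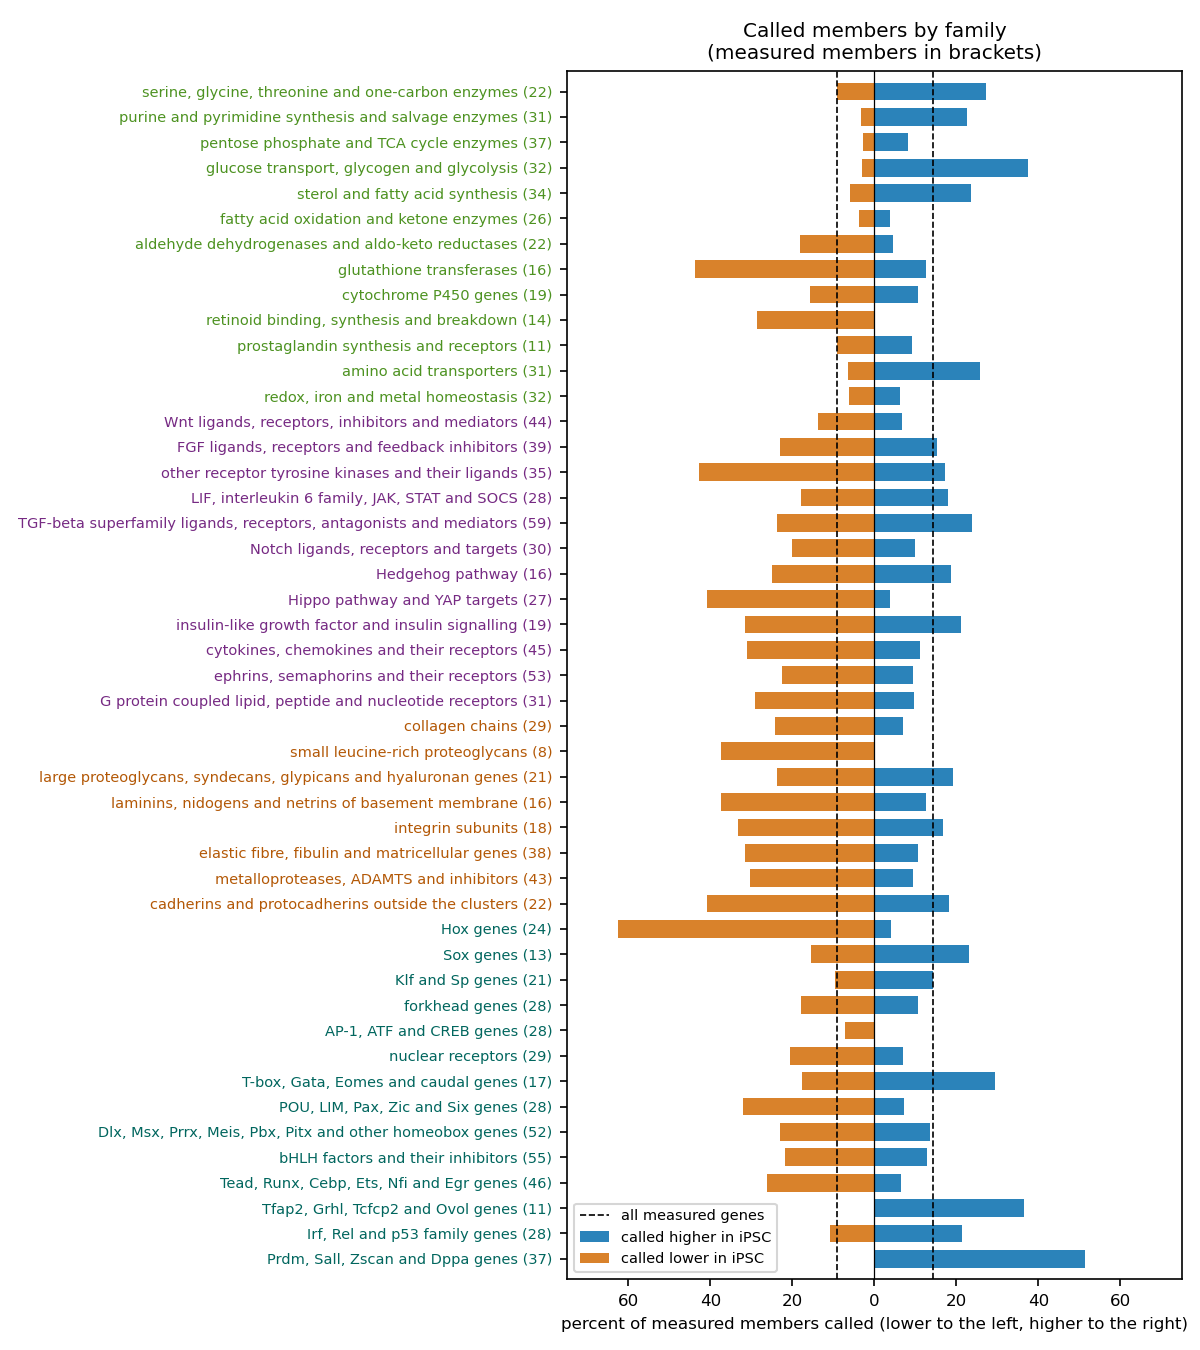
Bars give the percent of measured members of each of 47 families called higher (right) or lower (left) in iPSC, with label colours for metabolism, signalling, matrix and transcription factor families; dashed lines mark 14.3% higher and 9.12% lower over all measured genes. Glycolysis and the Prdm, Sall, Zscan and Dppa genes extend far to the right, and Hox genes, glutathione transferases and receptor tyrosine kinases far to the left.

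Glucose handling was the metabolic family with the most higher calls. Of 32 measured genes of glucose transport, glycogen and glycolysis 12 were called higher and 1 lower, with a median of 0.81. Slc16a3, which exports lactate, read 6.69 and 6.63 at day 6 and 9.89 and 10.03 in the lines, at least 9.68-fold higher from the floor (log2 3.30, SE 0.16, limma adjusted p = 1.37e-04). The phosphofructokinase isoforms Pfkp and Pfkl, which set the committed step of glycolysis, read 8.63 and 8.57 against 11.68 and 11.84 for Pfkp and 8.69 and 9.16 against 11.55 and 11.48 for Pfkl. Hexokinase 2 (Hk2), which traps glucose in the cell, read 8.69 and 9.08 against 10.83 and 10.69, and the glucose importer Slc2a1 read 11.42 and 11.67 against 12.98 and 13.01. The lines differed by at most 0.16 log2 units from each other in these 5 genes. Other steps were not called: Gapdh read 12.89 and 13.00 against 13.09 and 13.12, and the neuronal enolase Eno2 8.39 and 8.21 against 8.32 and 8.07. The single lower call was the transporter Slc2a6, at 7.89 and 7.84 against 6.57 and 6.51.

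RefSeq promoter windows (GRCm38.p6) were listed for 11 of the 12 glycolytic genes called higher. The letters ACGTG, the core of the element that hypoxia-inducible factors bind, stood within 250 bases before the start in 6 of the 11 (54.5%), on either strand. The search took in 5 motifs in 31 sets of 5 or more called family genes, and 1 set had a larger share of ACGTG, the Irf, Rel, E2f and p53 genes called higher (4 of 5, 80.0%). The letters stood in 21.7% of all 9980 measured genes with a window, 23.9% of those called higher and 16.8% of those called lower. The motif lies within CACGTG, the E-box, so the counts overlap. The 3 windows below show the lactate exporter, the glucose importer and hexokinase 2, which were higher together; capitals mark ACGTG or its reverse complement CACGT.
Slc16a3, chr11:120948817-120949066, plus strand: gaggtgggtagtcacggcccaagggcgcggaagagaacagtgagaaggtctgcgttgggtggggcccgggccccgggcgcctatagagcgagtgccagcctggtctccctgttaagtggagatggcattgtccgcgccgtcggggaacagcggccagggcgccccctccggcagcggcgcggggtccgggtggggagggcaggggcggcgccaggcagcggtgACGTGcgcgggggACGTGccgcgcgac
Slc2a1, chr4:119108495-119108744, plus strand: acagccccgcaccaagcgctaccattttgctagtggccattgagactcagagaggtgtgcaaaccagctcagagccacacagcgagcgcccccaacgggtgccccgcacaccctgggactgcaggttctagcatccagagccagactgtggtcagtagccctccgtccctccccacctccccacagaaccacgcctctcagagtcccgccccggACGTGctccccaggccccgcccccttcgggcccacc
Hk2, chr6:82774455-82774704, minus strand: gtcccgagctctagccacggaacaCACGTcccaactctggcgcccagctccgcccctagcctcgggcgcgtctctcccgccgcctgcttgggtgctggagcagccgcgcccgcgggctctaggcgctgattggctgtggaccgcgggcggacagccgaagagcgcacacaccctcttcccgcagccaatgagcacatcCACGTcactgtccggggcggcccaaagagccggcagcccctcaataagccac
Slc16a3 holds 2 copies close to its start, Slc2a1 holds 1 and Hk2 holds 2. Hif1a, which encodes a subunit of the factor, read 9.88 and 9.92 at day 6 and 9.93 and 10.01 in the lines, and its paralog Epas1 was called lower at 10.47 and 10.66 against 9.80 and 8.88. Epas1 was not called without the Firefly array (log2 difference -1.32, limma adjusted p = 0.0848), without the culture labelled Sumo2 knockdown (-1.13, adjusted p = 0.0991) or without the 10 day line (-0.77, adjusted p = 0.0159).

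Around glycolysis, few enzymes of the pentose phosphate pathway and TCA cycle were called, 3 higher and 1 lower of 37, and their median of 0.16 turned negative after loess. The higher calls were Pdk1 (log2 difference 1.47) and Pdk4 (1.31), kinases that close pyruvate dehydrogenase, and the malic enzyme Me2 (1.32). Pdk1 was not called with the median over its probe sets (log2 difference 0.77, limma adjusted p = 0.0347). Pyruvate carboxylase, Pcx, was lower at 9.26 and 9.60 against 8.07 and 8.49, a call that failed without the culture labelled Sumo2 knockdown (log2 difference -0.98, limma adjusted p = 0.0467) or without the 38 h line (-0.94, adjusted p = 0.0155). Citrate synthase, Cs, read 11.54 and 11.67 against 11.66 and 11.60. Fatty acid oxidation likewise had few calls, with 1 higher call (Acadm, 1.17, not called after loess) and 1 lower call (Acat1, -1.03) among 26, and with 3 higher calls without the 38 h line. Acat1 fell just short of 2-fold without the Firefly array (log2 difference -1.0, limma adjusted p = 0.0302) or without the 10 day line (-0.97, adjusted p = 0.00781).

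In one-carbon metabolism Amt and Gldc stood far above day 6. These subunits of the glycine cleavage system that feeds carbon from glycine into folate read 6.44 and 6.78 against 9.86 and 10.30 for Amt and 7.41 and 8.74 against 11.37 and 11.22 for Gldc. Amt, under the floor in the Firefly culture, was at least 10.3-fold and Gldc 9.32-fold higher, while the third subunit Gcsh read 7.48 and 7.86 against 8.02 and 7.97 and was not called. The mitochondrial folate enzymes Mthfd2 and Mthfd1l were higher by 1.44 and 1.40, and their relative Mthfd2l was lower (log2 difference -1.69). Of 22 measured members 6 were called higher and 2 lower, with a median of 0.76, and 11 were called higher without the culture labelled Sumo2 knockdown. Phgdh, the first enzyme of serine synthesis, read 8.07 and 8.17 against 8.65 and 8.17. Mthfd2 was not called without the Firefly array (log2 difference 1.03, limma adjusted p = 0.0805). The other lower call, Cth of transsulfuration, read 10.52 and 10.65 against 10.03 and 8.84, lowest in the 10 day line, and was not called with values set to the floor, with no filter, with no intensity trend or without the Firefly array (log2 difference -1.21, limma adjusted p = 0.153), without the culture labelled Sumo2 knockdown (-1.08, adjusted p = 0.168) or without the 10 day line (-0.55, adjusted p = 0.0489).

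Purine and pyrimidine enzymes had 7 higher and 1 lower call of 31, with a median of 0.41. Upp1, which splits uridine, read 9.75 and 9.64 against 10.96 and 11.08. Prps1, which makes the ribose phosphate precursor, read 8.16 and 8.60 against 9.52 and 10.97, the salvage enzyme Hprt 8.96 and 9.55 against 10.20 and 10.88, and Ppat, which opens purine synthesis, 9.44 and 10.10 against 11.05 and 11.05. Prps1 and Hprt, both X-linked, stood highest in the 10 day line. The single lower call, Nt5e, is the surface enzyme CD73 that makes adenosine (7.65 and 8.22 against 6.58 and 6.37). Without the Firefly array 2 of the family were called higher, and without the culture labelled Sumo2 knockdown 11 were. Prps1 was not called without the Firefly array (log2 difference 1.64, limma adjusted p = 0.123) or without the culture labelled Sumo2 knockdown (2.09, adjusted p = 0.0619). Hprt was not called without the Firefly array (log2 difference 0.99, limma adjusted p = 0.0899) or without the 10 day line (0.95, adjusted p = 0.0253), nor Ppat without the Firefly array (log2 difference 0.94, limma adjusted p = 0.0182).

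Sterol and fatty acid synthesis had 8 higher and 2 lower calls of 34, a count that fell to 3 higher after loess and 5 without the Firefly array. Acacb, an acetyl-CoA carboxylase, read 6.60 and 6.48 against 7.92 and 8.72, and lanosterol synthase, Lss, 8.43 and 8.36 against 9.90 and 9.60. Both lines lay above both cultures in each, as a call requires. Fads3 and Elovl1, a desaturase-family gene and a fatty acid elongase, were lower (log2 differences -1.47 and -1.40), with 9.01 and 8.96 and 8.23 and 8.08 in the lines.

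Amino acid transporters had 8 higher and 2 lower calls of 31, and 3 higher without the Firefly array. The higher share was 25.8%, against 14.3% over all measured genes. The family median was 0.13, close to the 0.15 over all measured genes. Slc38a3, a glutamine transporter, read 6.10 and 6.34 against 9.01 and 8.82, and Slc7a8, which exchanges neutral amino acids, 5.74 and 6.44 against 8.42 and 8.34. Both were under the floor at day 6 on both arrays and at least 4.77-fold and 3.30-fold higher in the lines. In contrast Slc7a11, the cystine importer, was lower, but only from 6.72 and 6.81 to under the floor (4.81 and 4.62), and was not called with values set to the floor. Slc43a2 was also lower (9.79 and 9.11 against 8.09 and 8.20), though not without the Firefly array (log2 difference -0.97, limma adjusted p = 0.0369).

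Glutathione transferases, which detoxify reactive compounds, had more lower than higher calls. Of 16 measured 7 were called lower and 2 higher, with a median of -0.59. Mgst1, a microsomal form, read 8.82 and 8.59 against 6.35 and 6.54, Gsto1 11.53 and 11.82 against 9.60 and 10.22, and Gstp1 12.15 and 12.16 against 10.80 and 10.68. The closest iPSC and day 6 arrays in these 3 genes were 1.31 log2 units apart. The higher calls were Gstm3 (5.40 and 5.01 against 6.99 and 7.14, not with values set to the floor) and Gstp3 (7.36 and 7.87 against 8.60 and 9.83); the Gstp and Gstm genes are near copies of each other, so their probe sets may not tell them apart. Without the Firefly array the family had 4 lower calls, and Gstp3 was not called without the Firefly array (log2 difference 1.35, limma adjusted p = 0.138), without the culture labelled Sumo2 knockdown (1.85, adjusted p = 0.0592) or without the 10 day line (0.99, adjusted p = 0.0209).

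Aldehyde dehydrogenases and aldo-keto reductases had 4 lower calls and 1 higher of 22, with a median of 0.02 that turned negative after loess, and with 3 higher calls without the culture labelled Sumo2 knockdown or without the 10 day line. Aldh3a1, which oxidises aromatic aldehydes, fell from 11.28 and 10.82 at day 6 to 6.04 and 6.08 in the lines, at least 20.9-fold lower. Akr1c14 read 9.05 and 9.13 against 4.66 and 4.75, and Akr1c18, the progesterone-clearing enzyme, 7.64 and 6.71 against 5.34 and 5.23, the latter not called with values set to the floor. The higher call was Aldh9a1, at 10.11 and 10.30 against 11.46 and 11.39. Among 19 cytochrome P450 genes 3 were called lower: Cyp1b1, which oxidises steroids and xenobiotics (10.77 and 10.50 against 7.89 and 7.70), Cyp2j6 (7.83 and 7.71 against 5.59 and 5.57) and Cyp11a1, which starts steroid synthesis (7.66 and 7.82 against 6.19 and 6.08). The lines differed by at most 0.19 log2 units from each other and lay at least 1.47 below either culture. Without the culture labelled Sumo2 knockdown 5 P450 genes were lower. The higher P450 calls were Cyp2s1 (8.21 and 9.20 against 10.25 and 11.25) and Cyp4f39 (5.68 and 6.21 against 6.64 and 8.07). Cyp2s1 was not called without the Firefly array (log2 difference 1.54, limma adjusted p = 0.0702), and Cyp4f39, under the floor on 3 of the 4 arrays and 0.70 higher on the log2 scale from the floor, not with values set to the floor, with no filter, with no intensity trend or without the Firefly array (log2 difference 1.15, limma adjusted p = 0.235), without the culture labelled Sumo2 knockdown (1.67, adjusted p = 0.104) or without the 10 day line (0.70, adjusted p = 0.0795).

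Of 14 retinoid genes 4 were called lower and 0 higher by limma, with 1, Rdh11, higher at an unadjusted p under 0.05. Crabp2, which carries retinoic acid to the nucleus, read 10.44 and 9.78 against 7.62 and 7.78. Rdh10 and Aldh1a1, the successive oxidising enzymes from retinol to retinoic acid, read 9.55 and 9.14 against 7.34 and 7.26 for Rdh10 and 8.05 and 7.88 against 6.13 and 6.15 for Aldh1a1, and Dhrs3, which reduces retinal back, 9.87 and 9.37 against 7.81 and 6.99. The receptors were not called: Rara read 9.07 and 8.99 against 9.48 and 8.95, and Rxrb 8.79 and 8.75 against 8.56 and 8.36. In the prostaglandin family of 11, the transporter Slco2a1 was lower (12.04 and 12.17 against 8.22 and 8.85, 11.9-fold) and the inducible synthase Ptgs2 higher (8.94 and 8.87 against 10.14 and 10.20). Of 32 redox and metal genes 2 were called each way. Tfrc, the transferrin receptor that takes up iron, read 7.49 and 8.18 against 10.61 and 10.72, and the zinc importer Slc39a14 10.97 and 10.95 against 8.91 and 8.47. Gclc, which makes glutathione's precursor, was higher by 1.12, but not after loess and not without the Firefly array (log2 difference 0.89, limma adjusted p = 0.0431) or without the 38 h line (0.97, adjusted p = 0.0164).

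**Figure D3:**
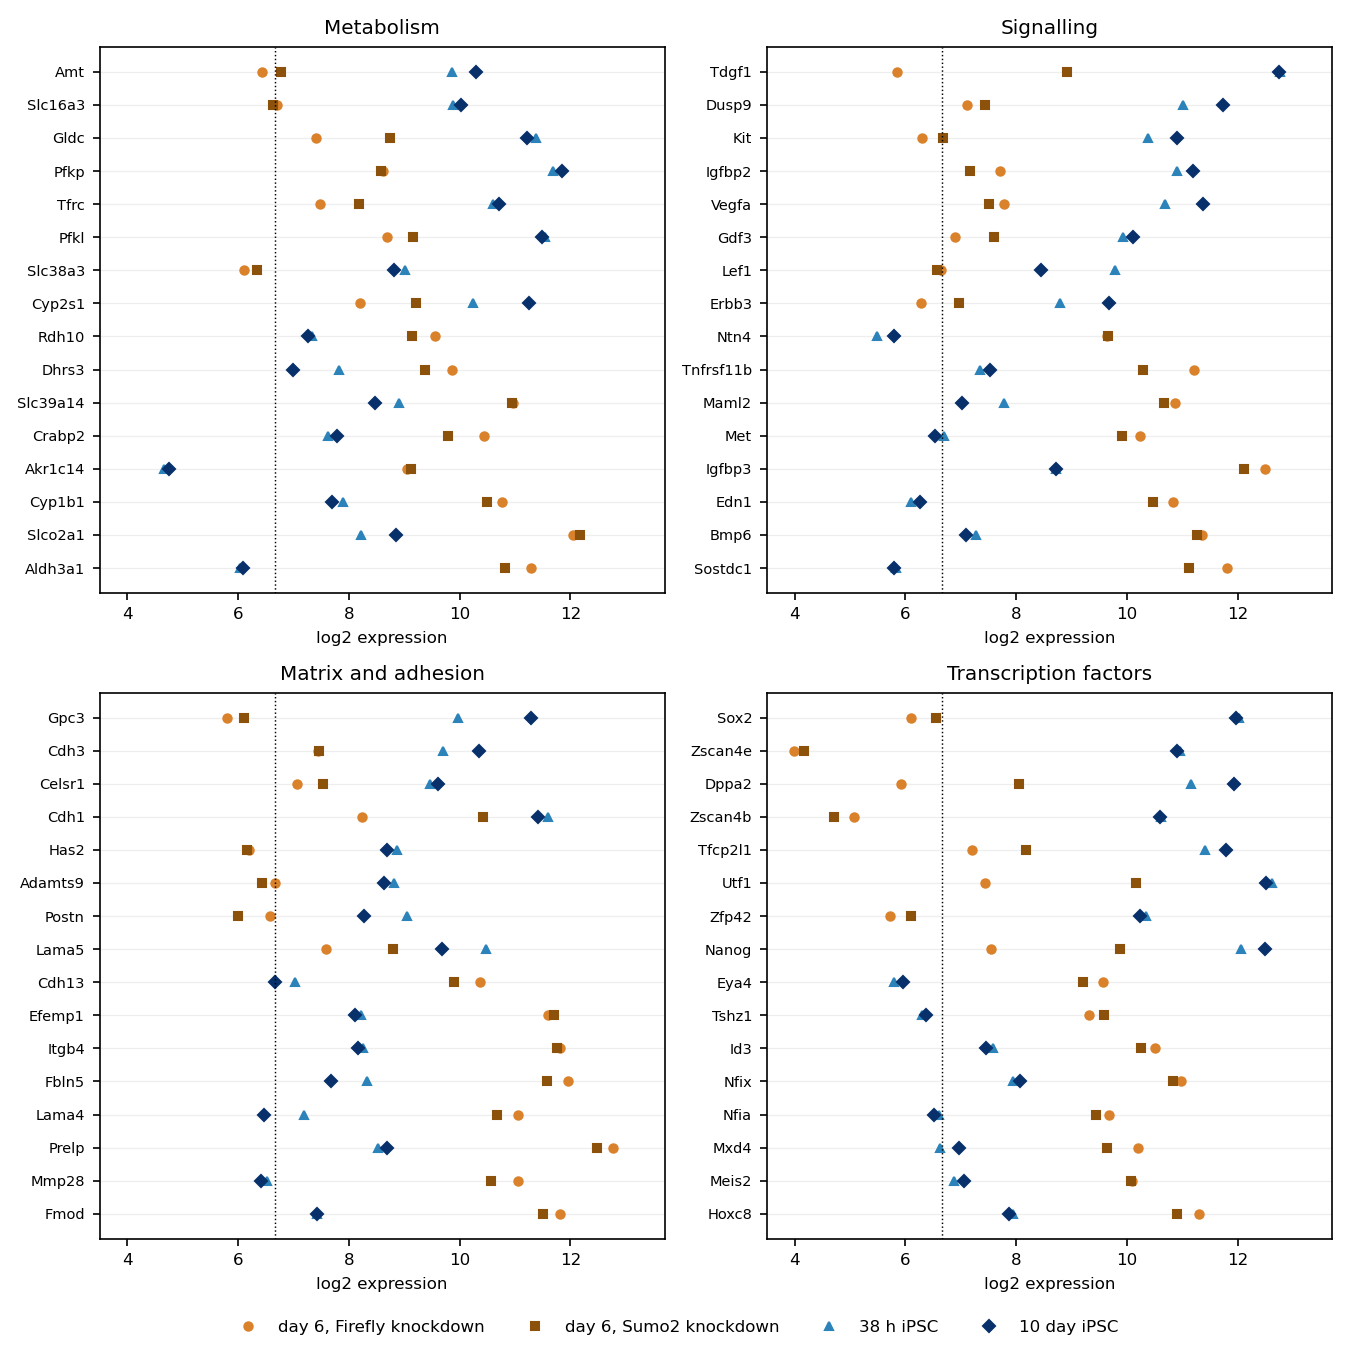
Log2 expression on each of the 4 arrays for the 8 called genes furthest above and the 8 furthest below the day 6 cultures in each of the 4 groups of families, ranked from the measuring floor, which the dotted line marks; filled orange and brown symbols are day 6 cultures and blue ones iPSC lines. The blue pair lies clear of the day 6 pair in each row, as a call requires. Tdgf1, Dppa2, Utf1, Nanog and Cdh1 stand out by the distance between the day 6 symbols.

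Receptor tyrosine kinases outside the FGF family had 15 lower and 6 higher calls among 35, with a median of -0.81. Met, the receptor of hepatocyte growth factor, read 10.24 and 9.91 against 6.70 and 6.54, at least 10.5-fold lower from the floor (log2 -3.46, SE 0.18, limma adjusted p = 1.69e-04). Its fellow lower genes included the ErbB ligand Nrg1 (10.82 and 11.04 against 8.55 and 8.03), Gas6, the ligand of the Axl receptor (12.07 and 11.66 against 9.18 and 9.61), and Tek, the angiopoietin receptor (10.50 and 10.50 against 7.95 and 8.17). Axl itself, picked out after its values were seen, read 11.65 and 11.63 against 9.72 and 9.55, so ligand and receptor were both lower. Higher calls went to Kit, to Vegfa, the angiogenic growth factor (7.79 and 7.52 against 10.68 and 11.36), and to Erbb3 (6.28 and 6.97 against 8.79 and 9.68). Nrg1, which binds Erbb3, thus had the opposite direction to its receptor. Pdgfa, at 8.91 and 9.07 against 8.84 and 8.88, and Vegfb, at 10.51 and 10.51 against 10.70 and 10.64, were not called.

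Among 39 FGF genes 6 (15.4%) were called higher, close to the 14.3% over all measured genes, and 9 (23.1%) lower, against 9.12%. Of ligands, Fgf4, which pluripotent cells secrete, read 10.11 and 10.44 against 11.59 and 11.83, whereas the mesenchymal ligands Fgf7 and Fgf18 read 9.05 and 8.35 against 7.28 and 7.20 for Fgf7 and 10.40 and 9.57 against 7.50 and 7.36 for Fgf18. Flrt2, a membrane protein that binds FGF receptors, was lower (10.22 and 10.17 against 8.19 and 7.81). Of the ERK phosphatases that FGF signalling induces, Dusp6 was lower (11.55 and 11.48 against 10.20 and 9.34) and Dusp9 higher, as given above. The receptor Fgfr2 was not called (7.23 and 7.23 against 6.90 and 7.77), with the lines on either side of the day 6 cultures. Il17rd, an FGF signalling inhibitor, was higher by 1.09, but not after loess and not without the culture labelled Sumo2 knockdown (log2 difference 0.95, limma adjusted p = 0.0578) or without the 38 h line (0.86, adjusted p = 0.0218).

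In the LIF and interleukin 6 family, 5 genes of 28 (17.9%) were called each way, against 14.3% higher and 9.12% lower over all measured genes. The LIF receptor Lifr read 8.71 and 8.0 against 10.31 and 9.92, and Cntfr, the receptor of ciliary neurotrophic factor that shares its signalling chains, 6.60 and 7.0 against 9.47 and 8.65. The receptors of other family cytokines were lower, with Il6ra at 10.41 and 10.10 against 7.37 and 8.37 and the oncostatin M receptor Osmr at 10.97 and 10.01 against 8.51 and 8.03. Receptor genes therefore moved in both directions within the family. Their shared transducer Stat3 read 11.01 and 10.66 against 11.01 and 10.78, while Stat6, the interleukin 4 transducer, was lower (10.75 and 10.46 against 9.23 and 9.25). Pias2, a SUMO ligase that binds STAT proteins, was higher (9.72 and 9.81 against 11.22 and 11.30). Stat4 was called higher from under the floor (5.71 and 5.80 against 8.92 and 7.50) but not without the Firefly array (log2 difference 2.41, limma adjusted p = 0.0572).

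The TGF-beta superfamily had 14 genes called higher and 14 lower of 59. Each was 23.7%, against 14.3% higher and 9.12% lower over all measured genes. The family median was -0.25, against 0.15 over all measured genes. Of 18 genes sorted as ligands by symbol 5 were higher, among them Gdf3 (6.90 and 7.61 against 9.92 and 10.10) and Nodal (7.13 and 8.16 against 9.34 and 9.35). Both signal through activin receptors in early embryos. The 18 take in Bmp1, a protease despite its name, which was not called (10.06 and 9.72 against 9.67 and 9.44). The other higher ligands were Bmp7 (6.86 and 7.22 against 8.46 and 8.86), Bmp4 (8.35 and 8.01 against 9.80 and 8.79) and the activin chain Inhba (7.66 and 7.06 against 8.46 and 8.73). The 4 lower ligands were Bmp6, at 11.35 and 11.26 against 7.27 and 7.09, Tgfb3, at 10.71 and 10.42 against 8.77 and 8.64, Tgfb2, at 9.13 and 9.23 against 7.67 and 8.26, and Bmp2, at 7.15 and 6.65 against 5.26 and 5.41, so BMP ligands were called in both directions. Bmp4 was not called after loess, with values set to the floor or without the Firefly array (log2 difference 1.29, limma adjusted p = 0.11), without the culture labelled Sumo2 knockdown (0.95, adjusted p = 0.171) or without the 38 h line (0.61, adjusted p = 0.0836). Inhba was not called without the culture labelled Sumo2 knockdown (log2 difference 0.94, limma adjusted p = 0.0391), Tgfb2 not without the Firefly array (log2 difference -1.27, limma adjusted p = 0.0523) or without the 38 h line (-0.92, adjusted p = 0.0133), and Bmp2 not with values set to the floor. Receptors went the same 2 ways: Acvr1b, the activin and Nodal receptor, was higher (8.35 and 8.31 against 10.20 and 10.46) and Tgfbr2, which binds TGF-beta itself, was the 1 receptor of 13 called lower (9.31 and 9.02 against 7.45 and 7.57). Tdgf1, the Nodal co-receptor Cripto, read 5.84 and 8.92 at day 6 and 12.76 and 12.74 in the lines, so the culture labelled Sumo2 knockdown stood between the Firefly culture and the lines. Tgfbr1 was not called, at 8.04 and 7.88 against 7.97 and 8.04.

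Antagonists had 4 calls each way of 13. Lefty1, a Nodal inhibitor that Nodal induces, read 6.83 and 6.41 against 8.82 and 8.56, and Sostdc1, which blocks BMP and Wnt ligands, 11.80 and 11.11 against 5.84 and 5.79. Sostdc1 was at least 27.7-fold lower. Among 15 mediators and targets the 5 lower calls were Smad9 and all 4 Id genes, direct BMP targets that block bHLH factors. Id1 read 9.80 and 9.75 against 7.75 and 7.22, Id2 11.57 and 11.90 against 9.61 and 9.86, Id3 10.51 and 10.25 against 7.59 and 7.46, and Id4 8.93 and 8.92 against 6.85 and 7.12. Their log2 differences lay between -2.86 and -1.95. The transducers Smad1, Smad2, Smad3, Smad4 and Smad5 were not called, and the inhibitory Smad7 was higher (8.93 and 8.74 against 10.72 and 10.41). Ligand, receptor and target genes outside the 4 highest and 4 lowest were chosen by role after their values had been seen.

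**Figure D4:**
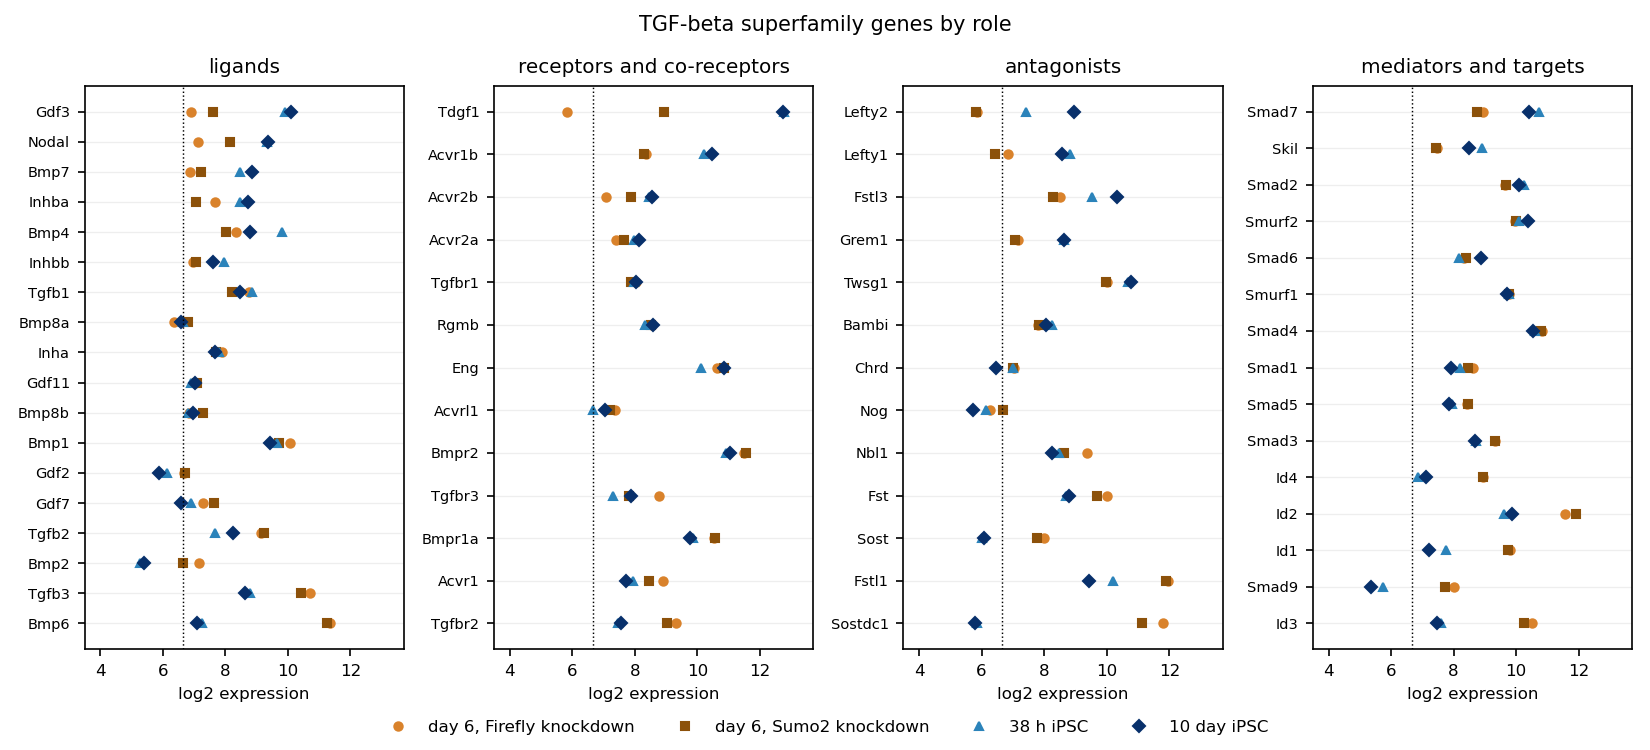
Log2 expression on each array for 59 TGF-beta superfamily genes in 4 panels by role, sorted within a panel by the iPSC minus day 6 difference, with the dotted line at the mean measuring floor. Nodal-type genes such as Tdgf1, Gdf3 and Acvr1b lie at the top of their panels, and Bmp6, Tgfbr2, Sostdc1 and the Id genes near the bottom.

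Of 44 Wnt genes 3 (6.8%) were called higher and 6 (13.6%) lower, and 5 were higher without the 38 h line. Lef1, a nuclear partner of beta-catenin, read 6.64 and 6.58 against 9.78 and 8.45, and its relative Tcf7l2 10.18 and 10.13 against 8.52 and 8.84, the opposite direction. Apcdd1, a Wnt inhibitor, was lower (9.85 and 10.79 against 7.76 and 8.25), while Dkkl1 and the secreted inhibitor Sfrp5 were higher from under the floor on both day 6 arrays, by at least 1.53 and 0.70 on the log2 scale, Sfrp5 not called with values set to the floor. The receptors Fzd1 and Fzd2 were lower (log2 differences -1.32 and -1.33), but Fzd1 was not called without the Firefly array (log2 difference -0.96, limma adjusted p = 0.0425), nor Fzd2 without the Firefly array (log2 difference -0.86, limma adjusted p = 0.0851). The receptors Ryk (11.17 and 11.12 against 11.11 and 11.13) and Fzd7 (10.44 and 10.13 against 10.46 and 10.04) were not called.

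Of 30 Notch genes 3 were called higher and 6 lower. The mastermind co-activators Maml2 and Maml3 were much lower, at 10.87 and 10.67 against 7.78 and 7.02 for Maml2 and 9.17 and 8.99 against 5.82 and 5.51 for Maml3. Rbpj, the DNA-binding partner they join, was higher (9.52 and 9.69 against 11.09 and 11.02). The fringe enzymes, which sugar-modify Notch, went opposite ways, with Lfng at 10.43 and 10.62 against 7.80 and 7.84 and Mfng at 6.76 and 6.94 against 8.06 and 8.0. Dtx1, a Notch-binding ubiquitin ligase, was higher (6.96 and 7.04 against 8.67 and 9.47) and the Notch ligand relative Dlk2 lower (8.93 and 8.28 against 6.09 and 6.22).

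In the Hedgehog pathway, 3 of 16 genes were called higher and 4 lower. The activators Gli1 and Gli2 and the receptor Ptch1 were higher, Gli1 from under the floor (6.37 and 6.63) to 8.74 and 8.09, Gli2 from 8.14 and 7.74 to 10.25 and 9.87 and Ptch1 from 9.21 and 9.47 to 10.73 and 10.75. Gli1 and Ptch1 are themselves target genes of the pathway. Gli3, which mostly represses, read 10.24 and 9.94 against 8.61 and 8.16, the transducer Smo 11.42 and 11.38 against 9.59 and 9.76, and the co-receptor Boc 9.28 and 8.79 against 7.59 and 7.53. Scube3, a secreted protein, was lower as well (10.26 and 9.97 against 7.65 and 8.50).

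Hippo pathway genes and YAP targets had 11 lower calls of 27 and 1 higher, with a median of -0.67. Vgll3, a TEAD cofactor, read 10.91 and 10.74 against 8.18 and 8.24, tissue factor F3 10.97 and 10.80 against 8.56 and 8.34, the kinase Lats2 8.57 and 8.49 against 6.65 and 6.99, and the secreted target Ccn1 12.42 and 12.19 against 10.55 and 10.53. Each was at least 1.49 log2 units lower in every pair of arrays. Ccn2, the other classical YAP target, was not called (11.38 and 11.08 against 11.17 and 11.15), so the calls did not take in every target gene. Yap1 itself read 10.21 and 10.14 against 9.95 and 9.85. The higher call, Ajuba, was lost after loess and without the Firefly array (log2 difference 0.79, limma adjusted p = 0.0326) or without the 38 h line (0.99, adjusted p = 0.0132). The letters TATAAA, the TATA box, stood in the 250 bases before the start in 10.0% of genes called lower, 6.7% of genes called higher and 6.6% of all with a window, searched on both strands. Of the 10 Hippo and YAP genes called lower with a window, only 1, Ccn1, held it, the same share as over all genes called lower. The Ccn1 window is shown with the motif in capitals.
Ccn1, chr3:145649986-145650235, minus strand: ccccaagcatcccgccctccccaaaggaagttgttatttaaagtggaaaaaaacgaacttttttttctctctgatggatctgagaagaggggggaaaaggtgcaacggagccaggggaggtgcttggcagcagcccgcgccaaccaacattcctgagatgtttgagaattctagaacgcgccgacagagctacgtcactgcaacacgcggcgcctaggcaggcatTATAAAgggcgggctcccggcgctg
The box lies near the 3' end of the window, just before the Ccn1 start.

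Insulin-like growth factor signalling had 4 higher and 6 lower calls of 19. The binding proteins Igfbp2 and Igfbp3, which hold the growth factors outside the cell, moved in opposite directions: Igfbp2 read 7.71 and 7.18 against 10.90 and 11.20, and Igfbp3 12.50 and 12.11 against 8.72 and 8.71. These were a 12.2-fold higher and a 12-fold lower level. The receptor Igf1r (10.53 and 10.45 against 9.36 and 8.88) and both adaptor genes, Irs1 (9.03 and 8.78 against 6.39 and 6.53) and Irs2 (10.65 and 10.43 against 8.03 and 8.67), were lower. The stanniocalcins were higher on the log2 scale, Stc1 by at least 1.51 from the floor and Stc2 by 1.52.

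Cytokine and chemokine genes had 14 lower and 5 higher calls of 45, the higher ones numbering 2 without 1 or the other day 6 array and 3 with values set to the floor. The decoy receptor Tnfrsf11b, osteoprotegerin, read 11.21 and 10.29 against 7.34 and 7.53, the monocyte attractant Ccl2 10.51 and 10.01 against 7.33 and 7.61, and Il34, a ligand of the receptor Csf1r, 9.82 and 9.41 against 6.61 and 7.24. Il1rn, the natural interleukin 1 blocker, read 10.35 and 8.72 against 5.78 and 6.25. In Tnfrsf11b, Ccl2, Il34 and Il1rn the Firefly culture was the highest of the 4 arrays. The decoy receptor Tnfrsf23 was higher (7.50 and 7.25 against 9.24 and 9.22).

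Guidance genes had 12 lower and 5 higher calls of 53. Ntn4, a netrin of basement membranes, read 9.65 and 9.66 against 5.48 and 5.79, Efnb1 11.48 and 11.11 against 8.10 and 8.58, and Efna5 9.64 and 9.83 against 7.17 and 6.64; the last 2 are ephrin ligands. Ntn4 was at least 7.95-fold lower. Sema4g was the higher call ranked first (6.25 and 6.38 against 8.26 and 7.84), and only 2 genes were higher after loess or without the Firefly array. Of 31 genes of G protein coupled signalling 9 were lower and 3 higher. Endothelin 1, Edn1, read 10.83 and 10.47 against 6.10 and 6.26, the angiotensin receptor Agtr1a 9.08 and 8.44 against 6.11 and 5.39, and Ramp3, which tunes adrenomedullin receptors, 10.27 and 10.14 against 7.55 and 6.88. The nucleotide receptor P2ry2 was higher (6.84 and 7.05 against 8.59 and 9.18), as were the hormone genes Adm2 and Adm, by at least 1.37 and 0.50 on the log2 scale from the floor. Adm lost its call with values set to the floor and without the Firefly array (log2 difference 1.26, limma adjusted p = 0.0609), without the culture labelled Sumo2 knockdown (0.77, adjusted p = 0.14) or without the 38 h line (0.71, adjusted p = 0.0716).

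Collagen chains had 7 lower and 2 higher calls of 29, with a median of -0.40. The lower ones were basement membrane and microfibrillar chains: Col15a1 read 9.45 and 8.83 against 6.68 and 6.33, Col4a1 10.08 and 9.74 against 8.13 and 8.51, and Col6a1 11.18 and 10.67 against 9.46 and 8.77. The fibrillar chains that make up most of fibroblast collagen were not called, with Col1a1 at 10.74 and 10.13 against 10.64 and 10.38 and Col3a1 at 8.28 and 7.71 against 8.23 and 7.90. Col18a1 and Col12a1 were higher, at 6.89 and 7.59 against 8.55 and 8.97 for Col18a1 and 8.25 and 7.36 against 9.57 and 9.07 for Col12a1. The summed level of the fibroblast markers, which include Col1a1, was lower in the lines too, as given above, and its part in the matrix results was not tested. Col6a2, a partner chain of Col6a1, was not called without the Firefly array (log2 difference -1.46, limma adjusted p = 0.0506).

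Of 8 small leucine-rich proteoglycans, which coat collagen fibrils, 3 were called lower and 0 higher in the limma fit, where 0 were higher at an unadjusted p under 0.05 too. Fmod, fibromodulin, read 11.81 and 11.50 against 7.42 and 7.43, an 18.7-fold lower level (log2 -4.23, SE 0.17, limma adjusted p = 1.05e-04). Prelp read 12.78 and 12.48 against 8.53 and 8.69, and Ogn 9.62 and 8.71 against 7.33 and 7.03. Biglycan, Bgn, was not called, at 13.18 and 12.99 against 12.70 and 12.55. Decorin, Dcn, read 7.95 and 7.07 against 6.82 and 5.16, a difference of -1.52 that missed the threshold (limma adjusted p = 0.0638).

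The larger proteoglycans and hyaluronan genes had 4 higher and 5 lower calls of 21. Gpc3, a glypican of embryonic tissue on the X chromosome, read 5.80 and 6.11 against 9.98 and 11.29, at least 15.7-fold higher, and Gpc6 9.97 and 9.79 against 8.02 and 6.77, the opposite direction. Has2, which makes hyaluronan, was higher (6.19 and 6.16 against 8.87 and 8.69), while Cemip, which breaks it down, and the hyaluronan receptor Cd44 were lower (9.58 and 9.17 against 7.38 and 7.47 for Cemip and 9.19 and 9.14 against 7.71 and 7.49 for Cd44). Synthesis and breakdown genes of hyaluronan thus moved in opposite directions. Sdc2, a syndecan, read 11.07 and 10.61 against 8.92 and 9.08, and the versican gene Vcan 8.03 and 8.11 against 7.99 and 7.73 without a call.

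Basement membrane genes had 6 lower and 2 higher calls of 16. The mesenchymal laminin chains Lama4 and Lama2 read 11.05 and 10.68 against 7.20 and 6.48 for Lama4 and 9.39 and 9.04 against 5.97 and 5.85 for Lama2, and Lamb2 10.61 and 10.29 against 8.93 and 8.73. The epithelial chain Lama5 was higher at 7.58 and 8.79 against 10.47 and 9.69, a call that failed without the Firefly array (log2 difference 1.29, limma adjusted p = 0.069). Lamc1, the chain most laminins share, read 10.75 and 10.92 against 11.01 and 10.75. Smoc1 was higher by 1.15 but not after loess or from the floor, and not without the culture labelled Sumo2 knockdown (log2 difference 0.61, limma adjusted p = 0.0765) or without the 38 h line (1.07, adjusted p = 0.0546).

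Integrin subunits had 6 lower and 3 higher calls of 18, with 3 lower once values were set to the floor and 1 higher without the culture labelled Sumo2 knockdown or without the 38 h line. Itgb4, the hemidesmosome subunit, read 11.81 and 11.76 against 8.26 and 8.17, and its partner Itga6 9.05 and 9.89 against 11.09 and 10.84, so the 2 chains of this laminin receptor moved in opposite directions. Itgb5 and Itgav, which pair as a vitronectin receptor, were both lower, at 11.29 and 10.96 against 9.38 and 9.36 for Itgb5 and 11.42 and 11.39 against 10.28 and 10.32 for Itgav, though Itgav was not called with the median over its probe sets (log2 difference -0.59, limma adjusted p = 0.0197). Itga5, the fibronectin receptor chain, read 9.83 and 9.61 against 10.26 and 9.62, and fibronectin itself, Fn1, 12.75 and 12.75 against 12.98 and 12.89; neither was called. The other higher subunits were Itga11 (7.78 and 7.34 against 8.99 and 8.52) and Itgb7 (6.89 and 6.73 against 8.19 and 7.45). Itga11 was not called without the culture labelled Sumo2 knockdown (log2 difference 0.97, limma adjusted p = 0.0553) or without the 38 h line (0.96, adjusted p = 0.0189). Itgb7 was not called after loess or without the Firefly array (log2 difference 1.09, limma adjusted p = 0.102), without the culture labelled Sumo2 knockdown (0.93, adjusted p = 0.119) or without the 38 h line (0.64, adjusted p = 0.0617).

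Elastic fibre and matricellular genes had 12 lower and 4 higher calls of 38, and 2 higher after loess. Fbln5, which assembles elastic fibres, read 11.96 and 11.58 against 8.34 and 7.67, Efemp1 11.59 and 11.70 against 8.22 and 8.12, and the calcification inhibitor Mgp 12.44 and 11.57 against 9.94 and 9.72. The closest pair of arrays was 3.24 log2 units apart for Fbln5, 3.37 for Efemp1 and 1.62 for Mgp. Postn, periostin, went the other way, from under the floor (6.58 and 6.0) to 9.05 and 8.27. Matrix proteases and inhibitors had 13 lower and 4 higher calls of 43. Mmp28 read 11.05 and 10.56 against 6.52 and 6.42, Adamts5, which cuts aggrecan, 10.60 and 10.52 against 7.69 and 7.23, and Adamts7 10.44 and 10.65 against 6.94 and 7.91. Adamts9, of the same family, was higher (6.67 and 6.43 against 8.82 and 8.64), as was the membrane protease Mmp17 (6.79 and 6.81 against 8.37 and 8.0). Adam17, the shedding protease, read 8.74 and 8.55 against 8.57 and 8.66.

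Cadherins had 9 lower and 4 higher calls of 22, with a median of -0.75. The epithelial cadherins Cdh1 and Cdh3 were higher, Cdh1 at 8.24 and 10.41 against 11.59 and 11.42 and Cdh3 at 7.44 and 7.47 against 9.70 and 10.35. In Cdh1 the culture labelled Sumo2 knockdown already stood 2.18 above the Firefly culture. Celsr1, a planar polarity cadherin, rose from 7.06 and 7.53 to 9.46 and 9.61. Cdh13 and the protocadherins Pcdh7 and Pcdh18 were lower, at 10.36 and 9.90 against 7.02 and 6.67 for Cdh13, 8.84 and 8.26 against 6.29 and 6.12 for Pcdh7 and 8.94 and 8.72 against 6.62 and 6.58 for Pcdh18. Dsg2, a desmosome cadherin, was higher but not with the median over its probe sets (log2 difference 0.95, limma adjusted p = 0.028) or without the Firefly array (log2 difference 1.86, limma adjusted p = 0.0641). Cdh1, above the floor on all 4 arrays, was not called in the refit with values set to the floor, which left its own values unchanged.

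Among transcription factors, Hox genes had the largest share of lower calls. Of 36 Hox genes with a probe set of their own 24 were measured, and 15 were called lower and 1 higher, with a median of -1.34. Hoxc8 read 11.30 and 10.90 against 7.94 and 7.88, a 9.11-fold lower level (log2 -3.19, SE 0.19, limma adjusted p = 2.04e-04). Hoxc6 read 10.05 and 9.89 against 7.51 and 7.80, Hoxa5 9.25 and 8.59 against 5.93 and 5.68, and Hoxa6 9.20 and 8.76 against 7.07 and 6.93. By cluster, 6 of 7 Hoxa, 5 of 6 Hoxb, 4 of 7 Hoxc and 0 of 4 Hoxd genes measured were called lower by limma (2 Hoxd genes, Hoxd8 and Hoxd10, were lower at an unadjusted p under 0.05), and 3 of the 4 Hoxd genes were below both cultures in both lines. Several Hox genes lay near the floor in the lines, and 10 were called lower with values set to it. The higher call, Hoxc13, was highest in the 10 day line (6.39 and 6.91 against 7.35 and 8.66). It was not called after loess, with values set to the floor or with no filter. The call also failed without the Firefly array (log2 difference 1.10), without the culture labelled Sumo2 knockdown (1.62) or without the 10 day line (0.70). Hoxb9, at 7.46 and 7.48 against 7.90 and 7.80, was not called.

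**Figure D5:**
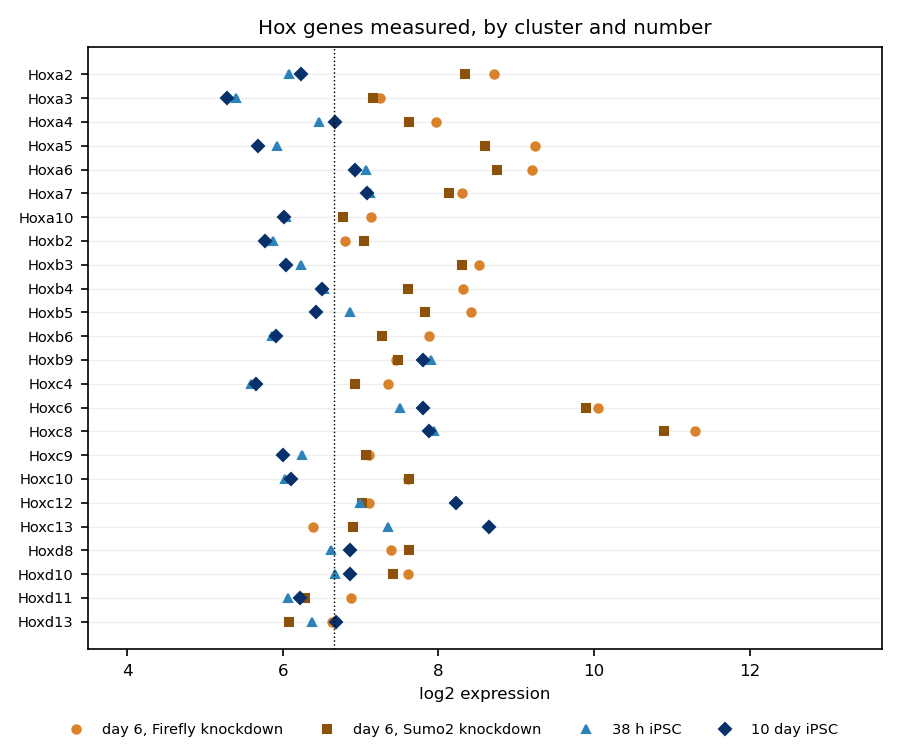
Log2 expression of the 24 measured Hox genes on each array, by cluster and number, with the dotted line at the mean measuring floor. In the Hoxa and Hoxb clusters the blue iPSC symbols lie left of the day 6 symbols in all genes but Hoxb9, and Hoxc12 and Hoxc13 stand out by their high 10 day value.

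The cofactors that bind DNA with Hox proteins were lower too. Meis2 read 10.10 and 10.07 against 6.88 and 7.05, and Meis1 9.10 and 8.92 against 6.59 and 5.99. In the list of other homeobox genes, 12 of 52 were called lower and 7 higher (4 higher without the Firefly array), among the lower ones Tshz1 (9.31 and 9.59 against 6.29 and 6.38), Zfhx4 (9.37 and 8.76 against 6.54 and 6.21) and the mesenchymal factor Prrx1 (11.67 and 11.58 against 9.56 and 9.11). Higher calls included Nanog and Six4, which is in the next list too, at 7.21 and 7.13 against 9.39 and 9.41. Otx2, an anterior and primed-state factor, read 6.39 and 6.16 against 8.24 and 10.22, 1.98 log2 units apart between the lines, and was not called without the Firefly array (log2 difference 3.07, limma adjusted p = 0.0644) or without the culture labelled Sumo2 knockdown (2.85, adjusted p = 0.0605). Rhox5, an X-linked homeobox gene, also stood highest in the 10 day line (6.63 and 6.33 against 7.42 and 9.54). It was not called after loess, with values set to the floor or with no filter. The call also failed without the Firefly array (log2 difference 2.15), without the culture labelled Sumo2 knockdown (1.85) or without the 10 day line (0.94). In the list of POU, LIM, Pax, Zic, Six4 and related genes, 9 of 28 were lower and 2 higher, Six4 and Zic2 (4 higher without the 38 h line), the lower ones led by Eya4 (9.57 and 9.20 against 5.80 and 5.96) and Pou6f1 (9.62 and 9.53 against 7.35 and 7.16). Zic2 was higher at 7.35 and 8.01 against 9.04 and 10.06, though not without the Firefly array (log2 difference 1.54, limma adjusted p = 0.0773).

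The Prdm, Sall, Zscan and Dppa list, zinc finger and chromatin genes of pluripotent and cleavage-stage cells, had 19 of 37 called higher and 0 lower by limma, with Sall2 and Zscan25 lower at an unadjusted p under 0.05 (2 genes). The list was drawn up with its pluripotency role in mind, so its direction is no independent evidence. Zscan4e read 3.99 and 4.18 against 10.96 and 10.90, and Zscan4b 5.07 and 4.72 against 10.61 and 10.59, both far under the floor at day 6. The 5 Zscan4 genes called are near-identical copies, so these probe sets may read the same transcripts. Dppa2 read 5.93 and 8.05 against 11.16 and 11.93, Utf1 7.44 and 10.16 against 12.61 and 12.50, and Zfp42 5.72 and 6.10 against 10.34 and 10.23. In Dppa2 and Utf1 the culture labelled Sumo2 knockdown stood 2.12 and 2.71 above the Firefly culture, and in Zfp42 only 0.38. Zscan21 was among members not called, at 7.76 and 7.81 against 7.86 and 7.73.

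Among 13 Sox genes 3 were called higher and 2 lower. Sox2 was at least 40.3-fold higher and Sox15 read 7.12 and 7.34 against 9.37 and 9.86. Sox1 was higher by at least 0.60 on the log2 scale from the floor, and Sox4 and Sox13 were lower (log2 differences -1.24 and -1.08). Sox1 lost its call with values set to the floor and without the Firefly array (log2 difference 1.33, limma adjusted p = 0.112), without the culture labelled Sumo2 knockdown (1.46, adjusted p = 0.0779) or without the 38 h line (0.88, adjusted p = 0.0206). Sox4 lost it without the Firefly array (log2 difference -1.13, limma adjusted p = 0.137), without the culture labelled Sumo2 knockdown (-1.34, adjusted p = 0.0827) or without the 10 day line (-0.74, adjusted p = 0.0371). Sox13 lost it without the Firefly array (log2 difference -1.07, limma adjusted p = 0.0749), without the culture labelled Sumo2 knockdown (-1.09, adjusted p = 0.057) or without the 38 h line (-0.77, adjusted p = 0.0221). Of 21 Klf and Sp genes 3 (14.3%) were higher and 2 (9.5%) lower, close to the shares over all genes. Klf2, Klf5 and Klf8 read 7.44 and 6.94 against 9.56 and 10.06 for Klf2, 8.60 and 9.28 against 11.40 and 11.24 for Klf5 and 6.49 and 7.11 against 9.12 and 9.91 for Klf8. Klf2 and Klf5 belong to the naive pluripotency network. Klf4, 1 of the classical reprogramming factors, went down from 11.93 and 12.15 to 10.82 and 11.09, and was not called without the culture labelled Sumo2 knockdown (log2 difference -0.98, limma adjusted p = 0.0155) or without the 38 h line (-0.95, adjusted p = 0.00111). Whether the Klf4 signal includes RNA from introduced reprogramming factors was not tested. Klf7 was lower in each line (9.82 and 9.29 against 7.93 and 7.60).

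The nuclear factor I genes were lower, Nfia at 9.68 and 9.45 against 6.61 and 6.52 and Nfix at 10.97 and 10.83 against 7.94 and 8.07, in a list of Tead, Runx, Cebp, Ets, Nfi and Egr genes with 12 lower and 3 higher calls of 46 and a median of -0.61. Runx1 read 10.05 and 9.63 against 8.12 and 7.42. The epithelial Ets factor Elf3 was the furthest above, at 5.52 and 5.37 against 9.81 and 10.55, at least 11.5-fold. The other higher calls were Ets2 (1.27) and Gabpa (1.04). Gabpa was not called after loess or without the 38 h line (log2 difference 0.94, limma adjusted p = 0.0101). Ets2 was not called without the Firefly array (log2 difference 1.36, limma adjusted p = 0.0817), without the culture labelled Sumo2 knockdown (1.18, adjusted p = 0.092) or without the 10 day line (0.81, adjusted p = 0.0254). The Tfap2, Grhl, Tcfcp2 and Ovol list, which also holds the splicing regulator Esrp1, had 4 of 11 higher. Tfcp2l1 read 7.21 and 8.18 against 11.41 and 11.79, and Grhl3 6.35 and 8.56 against 10.40 and 11.18. Its other higher calls were Grhl2 (5.59 and 6.33 against 7.16 and 6.89) and Esrp1 (6.10 and 7.34 against 8.48 and 7.84). Neither of these was called without the Firefly array or without the 38 h line, and Grhl2 was not called with values set to the floor. In Grhl3 the day 6 cultures differed by 2.21, the Firefly one being the lower.

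Of 55 bHLH genes and their inhibitors 7 were higher and 12 lower. Mycn read 6.15 and 7.26 against 10.05 and 9.13, and the neighbouring genes Olig1 and Olig2 6.04 and 7.14 against 9.28 and 9.02 for Olig1 and 5.36 and 6.42 against 9.40 and 8.58 for Olig2. Mxd4, a Myc antagonist, was lower (10.19 and 9.65 against 6.63 and 6.97), so Mycn and this antagonist moved in opposite directions. Ebf1, a mesenchymal and B cell factor, was lower (9.66 and 8.82 against 7.09 and 6.88), as was Twist1 (8.94 and 8.45 against 7.19 and 6.99). T-box, Gata and caudal genes had 5 higher and 3 lower calls of 17, the higher ones numbering 2 without the Firefly array and 3 with values set to the floor. Tbx3, which sustains naive pluripotency, read 8.65 and 8.87 against 10.87 and 11.57, and Tbx15 and Tbx18 of body wall mesenchyme 9.54 and 9.09 against 7.54 and 7.41 for Tbx15 and 8.87 and 8.18 against 6.23 and 6.63 for Tbx18. Tbx2 was lower, at 7.73 and 7.37 against 5.90 and 6.02 under the floor, not called with values set to the floor.

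Forkhead genes had 3 higher and 5 lower calls of 28, with 2 lower without the Firefly array. Foxh1, the Nodal pathway factor, read 5.70 and 7.77 against 9.45 and 8.89, and Foxn4 and Foxr2 were higher by at least 1.83 and 0.83 on the log2 scale from the floor, Foxr2 not with values set to the floor. Foxc1, a mesenchymal factor, was lower (8.50 and 8.12 against 6.54 and 6.49). Of 29 nuclear receptors 2 were higher and 6 lower, the latter 2 without the Firefly array. Esrrb read 6.14 and 7.04 against 8.50 and 8.95, and Nr2f2, a mesenchymal factor, 8.48 and 8.19 against 7.0 and 6.76. Nr5a2 was called higher at 7.25 and 9.08 against 9.95 and 9.72, but its day 6 cultures were 1.82 apart. It lost the call after loess, with values set to the floor, with no filter and with no intensity trend. The call also failed without the Firefly array (log2 difference 0.76) or without the 38 h line (1.56).

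AP-1, ATF and CREB genes were seldom called, 0 higher and 2 lower of 28 by limma (3 were higher at an unadjusted p under 0.05), and 6 were lower after loess and 4 without the 10 day line. Fos read 8.22 and 7.79 against 7.99 and 7.92. Maf was lower, at 7.19 and 6.50 against 5.54 and 5.35 under the floor, not with values set to the floor, and Creb3l2 as well (log2 difference -1.04), not without the Firefly array (log2 difference -0.84, limma adjusted p = 0.0519) or without the 38 h line (-0.92, adjusted p = 0.0164). In the Irf, Rel, E2f and p53 list of 28, 6 were higher and 3 lower. The cell cycle factors E2f1, E2f5 and E2f8 read 8.92 and 9.11 against 10.37 and 10.28 for E2f1, 8.42 and 8.70 against 10.31 and 10.72 for E2f5 and 8.69 and 8.86 against 10.53 and 10.08 for E2f8, and Rb1, the retinoblastoma protein gene, 11.36 and 11.31 against 9.48 and 10.16. Rb1 was not called with the median over its probe sets (log2 difference -0.80, limma adjusted p = 0.0221). The lower calls were Rb1, Irf2 (9.33 and 9.13 against 6.05 and 6.19) and Rela, the main NF-kappa B subunit (11.07 and 11.05 against 10.04 and 9.81). Rel, of the same family, was higher by 1.25 but not without the Firefly array (log2 difference 1.38, limma adjusted p = 0.0735), without the culture labelled Sumo2 knockdown (1.12, adjusted p = 0.0946) or without the 10 day line (0.83, adjusted p = 0.0266).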

How the data were processed

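Total RNA of 4 cell cultures was measured on 1 array each. The deposited log2 values were made by the authors with RMA, run in Expression Console (Affymetrix) per the submitters' processing notes, without stated versions or settings. The table does not write the log base, and base 2 was taken as the scale RMA writes. RMA equalises the arrays' distributions, so a change in total RNA per cell cannot be seen. Of 41345 probe sets 23521 had 1 gene symbol, 1814 several and 16010 none listed, and 1082 of 22180 genes had more than 1 probe set. The measuring floor was 6.64 to 6.67 on the 4 arrays.

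limma 3.58.1 in R 4.3.3 (lmFit, eBayes with an intensity trend) compared both iPSC with both day 6 arrays. P-values measure only the spread between these arrays, which may be technical and includes the knockdown and the difference between lines; the number of arrays limits the precision. Unadjusted p was under 0.05 for 7052 genes and adjusted p for 5958. Tested on simulated data of 12735 genes, the same procedure recovered 59 of 100 genes changed by 1.5 log2 units and 84 of 100 changed by 3, with 7 false calls. Only these genes were changed in the simulation, while 5958 passed the adjusted p in the data. The simulated rates are therefore not those of this comparison.

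The members, the 47 families and the markers were chosen with earlier results of these data known. The text names the 15 highest and 15 lowest called genes counted from the floor, up to 4 called genes each way and up to 3 level genes above the floor per family, members of counts of 3 or fewer, and the markers that were called. Predicted genes, small RNAs and the receptor families of smell and pheromone sensing were not named. Genes outside this rule (Slc2a1, Epas1, Axl, Yap1, Sumo2, Xist, 3 Y-linked genes and TGF-beta members named by role) were chosen after their values were seen. Promoter windows are those of RefSeq (GRCm38.p6), matched for 9980 measured genes, of which 1965 had more than 1 window and the first listed was used. The alternatives were another scaling, 3 other filters, the median over probe sets, no trend, values set to the floor, other folds and leaving out each array.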

Additional observations from a re-analysis of the deposited data

Results flagged for a closer look

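Of the named genes above the floor on all 4 arrays, 4 had the lines at least 2-fold apart and on opposite sides of both day 6 cultures. None of these was called in the comparison of both lines with both cultures, and with 1 array per line the difference between lines was not tested. Amot, an angiomotin that holds YAP in the cytoplasm, read 7.81 and 7.67 at day 6 and 8.27 and 7.21 in the 38 h and 10 day lines, so the 10 day line stood -1.06 log2 units from the 38 h line. Lama1, the laminin chain of the early embryo's basement membrane, read 9.39 and 9.36 against 10.12 and 9.01, a difference of -1.11. Gata2, a blood and trophoblast factor, read 8.88 and 8.41 against 7.97 and 9.12, a difference of 1.16 the other way. Hoxc12 read 7.11 and 7.02 against 6.99 and 8.22, a difference of 1.23, and its cluster neighbour Hoxc13 was also highest in the 10 day line. Of 453 named genes 31 had the lines on opposite sides of both cultures, and 641 of 12735 measured genes did.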

How the results depend on the processing

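The genes called numbered 1820 higher and 1161 lower. With a 1.5-fold threshold they were 3294 and 2034, with a 4-fold threshold 410 and 321, and with only genes at or above the floor on all 4 arrays 1169 higher and 769 lower. Leaving out 1 array at a time gave 1337 higher calls (without the Firefly culture) to 1961 (without the 38 h line), and 943 lower calls (without the Firefly culture) to 1242 (without the culture labelled Sumo2 knockdown). The array left alone in its pair was then assumed to vary like the other pair. The remaining alternatives stayed within 1.5 times the counts given first: no filter, a filter at the median over all probe sets, the median over a gene's probe sets, no intensity trend, values set to the floor (1510 and 967) and cyclic loess (1473 and 1384). No named gene reversed its direction while called. Of 302 named genes that were called, 282 kept the call after loess, 276 with values set to the floor, 247 without the Firefly culture, 269 without the culture labelled Sumo2 knockdown, 280 without the 38 h line and 286 without the 10 day line. The cause of these losses was not tested. Setting values to the floor refits all genes together. Cdh1, Epcam, Bmp4, Cth and Nr5a2, above the floor on all 4 arrays, lost the call there with their own values unchanged. No paired analysis was possible because the labels carry no replicate numbers and each condition has 1 array. Signal over the floor limits the dim side of many calls, where folds are lower bounds, and 69 genes were 2-fold apart without passing the adjusted p.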

Other observations

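The share of genes called higher differed by chromosome, which was not tested. Of 421 measured X-linked genes 95 (22.6%) were called higher and 33 (7.8%) lower, with a median difference of 0.36, while on the other chromosomes 11.5% to 18.3% were called higher. Xist, the RNA that coats the inactive X, read 6.22 and 6.72 at day 6 and 8.29 and 8.99 in the lines and was called higher (log2 difference 2.17, SE 0.29, limma adjusted p = 0.00212). The Y-linked genes Kdm5d (8.12 and 7.92 against 4.83 and 4.55), Uty (8.13 and 8.17 against 5.29 and 5.05) and Eif2s3y (7.71 and 8.16 against 5.30 and 5.40) were called lower and lay under the floor in both lines. The part these levels have in the X-linked calls was not tested. The labels give the sex of all cells as a pool of male and female, and which sex the lines have is not stated. At the other end of the range, chromosome 6 had 85 lower and 68 higher calls of 592, with a median of 0.07.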
